A study of Homo sapiens with 12 samples.

Results

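RNA recovered from cells with a chromatin fusion was compared directly with RNA recovered from cells with a cytoplasmic fusion. These are the bound RNA of H2B-APEX2 cells and the bound RNA of APEX2-NES cells. Both may hold background, since negative control cells gave bound RNA too, which is set beside many values. A gene entered the comparison when its RPKM (reads scaled to gene length and library size) averaged at least 1 over both libraries and reads were listed in each. Of 57773 listed genes, 6398 entered, 3930 of them protein-coding. A further 147 genes reached the RPKM minimum but had 0 reads in 1 of the libraries, and these are described apart. The remaining genes of the table were too low to compare.

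All cells were HEK293, an established human embryonic kidney line, of the T-REx type, in which doxycycline switches on an inserted gene. H2B-APEX2 cells were a stable line expressing V5-H2B-APEX2, the chromatin protein histone H2B joined to the engineered peroxidase APEX2 and a V5 tag. APEX2-NES cells expressed V5-APEX2-NES, where a nuclear export signal keeps the peroxidase in the cytoplasm. The negative control was the T-REx cells, for which no fusion is labelled. Every line received 4-thiouridine, a crosslinkable uridine, together with doxycycline for 16 h, then biotin-phenol for 30 min, before biotinylation and ultraviolet crosslinking. Whether a line is 1 clone is not stated in the labels. Each line has 1 library of bound RNA in the table used, so no spread between replicates can be given and no gene was tested. A gene was called higher or lower by size alone, at 2-fold or more.

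APEX2 oxidises biotin-phenol to a radical that decays close to the enzyme, so proteins near the fusion are tagged, and streptavidin then recovers them with the RNA crosslinked to them. Transcripts are made, spliced and packaged with hnRNP and SR proteins on chromatin before export. Some long noncoding RNAs, among them XIST and MALAT1, stay in the nucleus, while 7SL RNA, the Y RNAs and translated messenger RNAs work in the cytoplasm.

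The coding sequences of the genes at both ends of the comparison differ in base composition, which ran with the result most closely of the 5 gene features examined, so 30 codons from the middle of each of the 3 highest and 2 lowest protein-coding genes are shown. The sequences are GENCODE 29 transcripts of GRCh38, written 5′ to 3′, and capitals mark each G or C at the third codon position. FKBP3 (hg19 chr14:45584803-45604522, minus strand), GGCT (chr7:30536237-30591095, minus strand) and PIN4 (chrX:71401203-71522776, plus strand) were higher in H2B-APEX2 bound RNA. LGALS1 (chr22:38071615-38075813, plus strand) and S100A6 (chr1:153507075-153508720, minus strand) were lower.
FKBP3: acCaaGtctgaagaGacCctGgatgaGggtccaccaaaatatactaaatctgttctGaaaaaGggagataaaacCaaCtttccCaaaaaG
GGCT: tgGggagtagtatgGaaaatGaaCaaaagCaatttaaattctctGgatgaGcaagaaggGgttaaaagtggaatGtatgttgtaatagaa
PIN4: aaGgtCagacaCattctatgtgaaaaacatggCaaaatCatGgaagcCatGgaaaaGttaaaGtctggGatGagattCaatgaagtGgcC
LGALS1: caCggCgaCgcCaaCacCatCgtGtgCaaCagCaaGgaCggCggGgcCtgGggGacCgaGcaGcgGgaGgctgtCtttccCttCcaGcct
S100A6: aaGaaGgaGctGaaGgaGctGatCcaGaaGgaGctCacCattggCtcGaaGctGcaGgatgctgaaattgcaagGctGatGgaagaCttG
In these stretches G or C closed 12 codons of FKBP3, 9 of GGCT and 15 of PIN4. It closed 27 codons of LGALS1 and 23 of S100A6.

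The table lists 16529730 reads for H2B-APEX2 bound RNA and 14584546 for APEX2-NES bound RNA, with 22952389 for the negative control. These listed reads were 24.1%, 31.5% and 45.2% of the totals that the RPKM values imply, which are 68575409 reads for H2B-APEX2, 46244912 for APEX2-NES and 50784927 for the negative control. Reads fell on 33362 genes in H2B-APEX2 bound RNA, on 23125 in APEX2-NES bound RNA and on 23668 in the negative control. Of the values above 0, 49.2% were not whole numbers in the H2B-APEX2 library, against 24.9% in the APEX2-NES library. Of 8 HEK293 markers 4 reached the RPKM minimum, 2 of them higher and 1 lower, beside 22.3% higher and 20.6% lower over all genes. NEFL (neurofilament light chain), INA (internexin) and HOXA9 were at 6.89, 3.90 and 4.68 RPKM in H2B-APEX2 bound RNA and at 1.08, 0.756 and 2.25 RPKM in APEX2-NES bound RNA. VIM, vimentin, had 6.60 RPKM in H2B-APEX2 and 39.1 RPKM in APEX2-NES, and PAX2, LHX1, EYA1 and NEFM were too low to compare.

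The bound RNA of both lines differed widely. Differences are given as log2(RPKM + 1) of H2B-APEX2 minus APEX2-NES, relative to the median gene, whose own difference was 0.10. At least 2-fold higher were 1428 genes, 22.3% of those compared, and at least 2-fold lower were 1315, or 20.6%, together 42.9%. Among protein-coding genes 864 were higher (22.0%) and 617 lower (15.7%), together 37.7%. The middle 90% of all genes lay between -2.08 and 2.15. Of the 864 higher protein-coding genes, 526 reached 1 RPKM in both libraries, and of the 617 lower ones, 271 did. The other 338 and 346 were under 1 RPKM in 1 of the libraries. Just inside the threshold, ATP5A1 had 19.2 RPKM in H2B-APEX2 and 8.39 RPKM in APEX2-NES bound RNA, a difference of 1.00. SNW1, just outside, had 7.11 and 2.79 RPKM in the same order of lines.

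**Figure D1:**
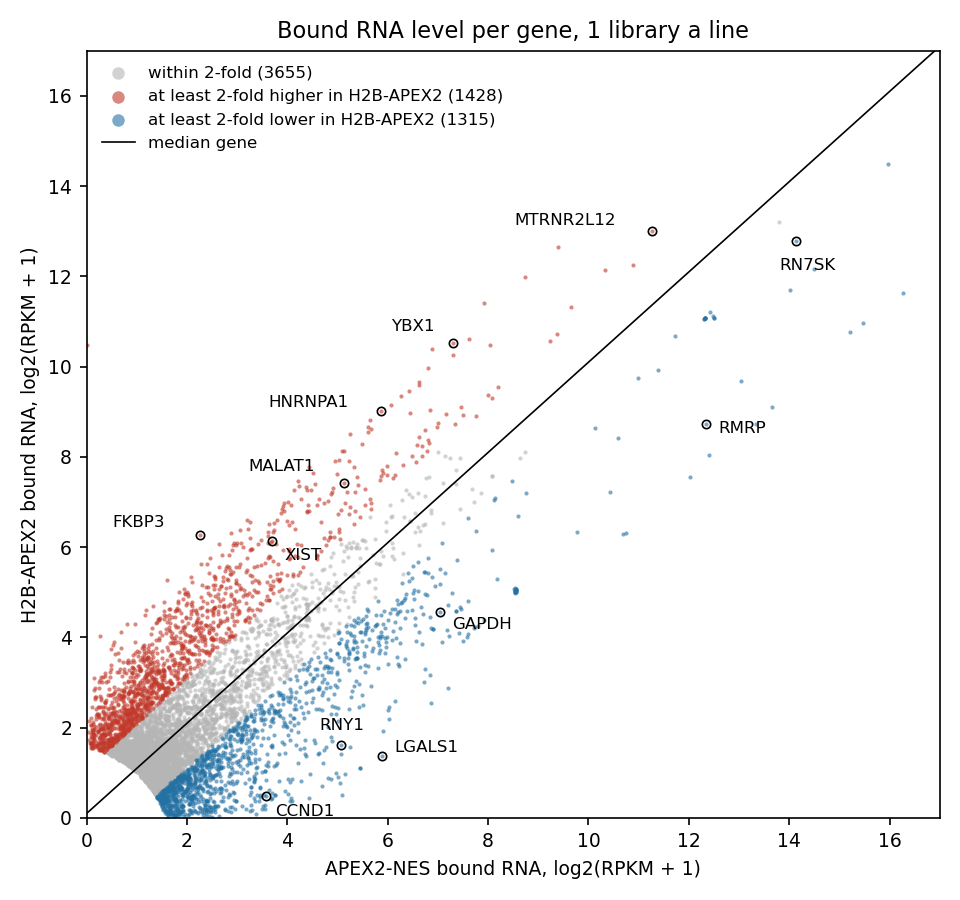
Bound RNA level of each compared gene in APEX2-NES cells (horizontal axis) and H2B-APEX2 cells (vertical axis), both as log2(RPKM + 1), 1 library a line. Red points are the 1428 genes at least 2-fold higher in H2B-APEX2, blue points the 1315 at least 2-fold lower, and the line marks the median gene. YBX1, HNRNPA1, MALAT1 and XIST lie above the line, and LGALS1, GAPDH, RMRP and RNY1 below it.

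The protein-coding gene furthest up was FKBP3, a nuclear prolyl isomerase, with 76.2 RPKM in H2B-APEX2 bound RNA, 3.80 RPKM in APEX2-NES bound RNA and 7.47 RPKM in the negative control. Its difference was 3.91 with a counting SE of 0.07, an error that covers counting only, as do all SEs here. GGCT, an enzyme of glutathione turnover, had 37.6, 2.04 and 3.19 RPKM in H2B-APEX2, APEX2-NES and the negative control, a difference of 3.56. In both genes H2B-APEX2 stood highest by far, and APEX2-NES was lower than the negative control. PIN4, a prolyl isomerase linked to ribosome assembly, had 18.7 RPKM in H2B-APEX2, 0.750 RPKM in APEX2-NES and 1.48 RPKM in the negative control. SRP9, a protein of the signal recognition particle, had 218 RPKM in H2B-APEX2, 20.5 RPKM in APEX2-NES and 14.7 RPKM in the negative control. RNA-binding factors came next. YBX1, a Y-box protein that coats messenger RNA, reached 1467 RPKM in H2B-APEX2 bound RNA, against 157 RPKM in APEX2-NES and 98.2 RPKM in the negative control. SSB, the La protein that binds the 3′ ends of RNA polymerase III transcripts, had 30.9 RPKM in H2B-APEX2, 2.56 RPKM in APEX2-NES and 2.73 RPKM in the negative control. HNRNPA1, which packages nascent RNA, had 518 RPKM in H2B-APEX2, 57.5 RPKM in APEX2-NES and 39.6 RPKM in the negative control. HNRNPA1L2 is a near-identical copy of it and cannot be told apart by shared reads. Others of the 12 highest were GTF3C6 (3.04), a subunit of the RNA polymerase III factor TFIIIC, HSPD1 (3.02), the mitochondrial chaperonin, HNRNPA1L2 (3.00) and NSA2 (3.00), a ribosome assembly factor. In total RNA the lines were closer for the genes compared here: FKBP3 had 8.87 RPKM in H2B-APEX2 and 8.62 RPKM in APEX2-NES cells, and YBX1 had 133 and 115 RPKM in the same order.

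**Figure D2:**
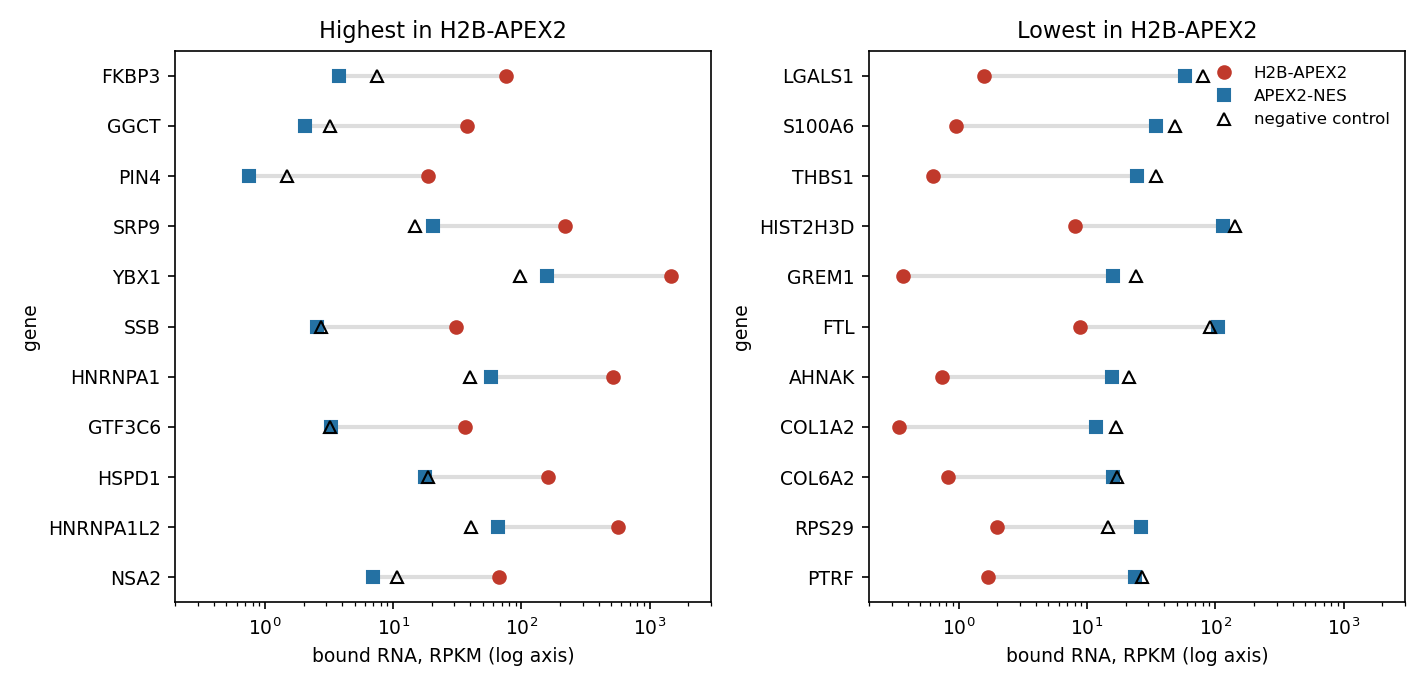
Bound RNA, in RPKM on a log axis, of 11 of the 12 highest and 11 of the 12 lowest protein-coding genes with at least 50 reads in both libraries. Circles are H2B-APEX2, squares APEX2-NES and triangles the negative control, 1 library each. In each gene shown the square and the triangle lie nearer to each other than to the circle, which is at 1467 RPKM for YBX1 and at 1.57 RPKM for LGALS1.

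At the low end, LGALS1, the lectin galectin-1, had 1.57 RPKM in H2B-APEX2 bound RNA, 57.9 RPKM in APEX2-NES bound RNA and 80.2 RPKM in the negative control, a difference of -4.62 with a counting SE of 0.09. S100A6, a calcium-binding protein, had 0.954 RPKM in H2B-APEX2, 34.4 RPKM in APEX2-NES and 48.6 RPKM in the negative control (-4.28). Both were thus high in the libraries other than H2B-APEX2, and highest in cells without a fusion. THBS1, the matrix protein thrombospondin-1, had 0.632, 24.6 and 34.5 RPKM in H2B-APEX2, APEX2-NES and the negative control. GREM1 (-3.72), a BMP antagonist, AHNAK (-3.35), a large membrane scaffold, COL1A2 (-3.34) and COL6A2 (-3.32), collagen chains, and PTRF (-3.29), the caveola protein cavin-1, belong to the same end. HIST2H3D (-3.77), a histone H3 gene, FTL (-3.53), the ferritin light chain, and RPS29 (-3.29), a ribosomal protein, were also among the 12 lowest. Of the fibroblast or mesenchyme list, 9 of 12 genes reached the RPKM minimum, 6 of them while under 1 RPKM in H2B-APEX2. All 12 summed to 7.21 RPKM in H2B-APEX2, 177 RPKM in APEX2-NES and 240.3 RPKM in the negative control. In total RNA the same 12 genes summed to 10.9 RPKM in H2B-APEX2 and 16.03 RPKM in APEX2-NES cells, a smaller gap. The list, with collagens, SPARC, LUM and DCN, was drawn up for fibroblasts, a cell type other than the labelled HEK293. In APEX2-NES its sum rested mostly on LGALS1 (57.9 RPKM), S100A6 (34.4 RPKM) and THBS1 (24.6 RPKM), and COL1A2 had 11.7 RPKM. How specific these genes are to fibroblasts was not tested. Of the 12 genes on the list, 3 were above 1 RPKM in H2B-APEX2, 10 in APEX2-NES and 11 in control cells. The part of other cells in this was not tested, and fewer cells of a type cannot be told apart from less RNA per cell in bulk libraries.

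Messenger RNAs of hnRNP proteins were mostly on the high side, and those of SR proteins mostly within 2-fold. Of 20 hnRNP genes, whose proteins bind nascent transcripts, 19 were compared, 12 were higher and 0 lower, with a median difference of 1.76, beside 22.0% higher and 15.7% lower over all protein-coding genes. HNRNPA2B1 had 126 RPKM in H2B-APEX2, 14.3 RPKM in APEX2-NES and 11.9 RPKM in the negative control. The other 7 were within 2-fold, HNRNPA0 among them at 2.77 and 3.47 RPKM in H2B-APEX2 and APEX2-NES. SR splicing factors were more even: 3 of 10 were higher and 0 lower (median 0.91), with SRSF6 at 13.3 RPKM in H2B-APEX2 and 2.80 RPKM in APEX2-NES. Of the Sm and LSm proteins, the cores of small nuclear ribonucleoproteins, 7 of 15 were higher and 2 lower. SNRPF had 23.8 RPKM in H2B-APEX2 and 2.16 RPKM in APEX2-NES, whereas SNRPD2 had 9.92 and 24.2 RPKM in the same order, so members of 1 complex fell on both sides. Transcripts known to keep introns in the nucleus counted 5 higher and 0 lower of 17 compared, median 0.91. This list shares members with the lists above, SRSF1, SRSF6 and HNRNPH1 among them. With the trend on transcript GC content removed its median was 0.13, and that of the SR list 0.16. Against the APEX2-NES library of 2016 the medians of these lists were each 0.48.

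Condensin and cohesin, the ring complexes that shape chromosomes, had 8 of 13 genes higher and 0 lower (median 1.22). SMC4 led with 27.1 RPKM in H2B-APEX2, 2.53 RPKM in APEX2-NES and 2.77 RPKM in the negative control. High mobility group genes, coding for chromatin-bending proteins, had 7 of 9 higher and 1 lower (median 1.22): HMGN3 stood at 65.5 RPKM in H2B-APEX2 and 6.91 RPKM in APEX2-NES, and HMGA1 at 27.1 and 54.96 RPKM in the same order. Of nucleolar proteins 8 of 13 were higher and 0 lower (median 1.15). All protein-coding genes together had 22.0% higher and 15.7% lower. NPM1, nucleophosmin, had 391 RPKM in H2B-APEX2, 49.5 RPKM in APEX2-NES and 35.4 RPKM in the negative control, while FBL, fibrillarin, had 41.1, 29.4 and 21.8 RPKM. With the trend on transcript GC content removed the medians of these groups no longer reached 2-fold: they were 0.90 for hnRNP, 0.36 for condensin and cohesin, 0.44 for high mobility group and 0.96 for nucleolar genes. Against the APEX2-NES library of 2016 the medians were 1.15 for hnRNP, 0.88 for condensin and cohesin, 1.14 for high mobility group and 0.68 for nucleolar genes.

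Chaperone genes were more often higher than lower, beside 22.0% higher and 15.7% lower over all protein-coding genes. All 8 genes of the CCT chaperonin, the cytosolic ring that folds actin and tubulin, were compared, of which 6 were higher and 0 lower (median 1.66, and 1.14 with the GC trend removed). CCT8 had 61.3 RPKM in H2B-APEX2, 8.73 RPKM in APEX2-NES and 7.81 RPKM in the negative control, and CCT3, the least different, had 16.7, 10.4 and 10.7 RPKM. Heat shock chaperones split: 9 of 15 were higher and 3 lower (median 1.30, and 0.89 with the GC trend removed). HSPD1 had 162 RPKM in H2B-APEX2, 17.8 RPKM in APEX2-NES and 18.7 RPKM in the negative control. HSPA8, the constitutive HSP70, had 5.48 RPKM in H2B-APEX2, 15.9 RPKM in APEX2-NES and 21.4 RPKM in the negative control. Their products are mostly cytosolic or mitochondrial, so the high side was not made of nuclear-protein genes alone.

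Genes of protein synthesis lay on both sides, beside 22.0% higher and 15.7% lower over all protein-coding genes. Translation initiation factors counted 11 higher and 2 lower of 32 (median 0.41), from EIF3E at 40.3 RPKM in H2B-APEX2 and 4.79 RPKM in APEX2-NES to EIF4EBP1 at 3.62 and 12.03 RPKM in the same order. Aminoacyl-tRNA synthetases counted 7 higher and 2 lower of 16, with TARS at 16.9 RPKM in H2B-APEX2 and 2.11 RPKM in APEX2-NES. Large ribosomal subunit genes counted 11 higher and 20 lower of 47 (median -0.60), the higher part being near the overall share. Within this 1 particle RPL5 had 499.9 RPKM in H2B-APEX2 and 86.4 RPKM in APEX2-NES, whereas RPL13A had 24.7 RPKM in H2B-APEX2 and 172 RPKM in APEX2-NES. Small subunit genes counted 4 higher and 19 lower of 32 (median -1.32), with RPS6 at 235 and 93.3 RPKM and RPS19 at 10.5 and 80.3 RPKM in H2B-APEX2 and APEX2-NES. Against the 2016 library of APEX2-NES the medians were 0.32 for the large and -0.40 for the small subunit genes, so the direction for the large subunit turned with the library used. EEF1A1, the elongation factor that delivers tRNA, had 753 RPKM in H2B-APEX2 and 291 RPKM in APEX2-NES, and shares reads with many copies.

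Of 73 nuclear genes for the respiratory chain, 23 were higher and 15 lower (median 0.32), from NDUFB3 at 29.6 RPKM in H2B-APEX2 and 4.47 RPKM in APEX2-NES to COX8A at 5.60 and 43.9 RPKM in the same order. Mitochondrial ribosomal proteins counted 14 higher and 7 lower of 61, and proteasome subunits 8 and 2 of 27. Over all protein-coding genes 22.0% were higher and 15.7% lower. Among glycolytic enzymes 2 of 14 were higher and 6 lower: LDHB had 149 RPKM in H2B-APEX2 and 39.9 RPKM in APEX2-NES, and GAPDH had 22.6 RPKM in H2B-APEX2 and 131 RPKM in APEX2-NES. In the secretory pathway 6 of 30 were higher and 6 lower, with CANX, the lectin chaperone calnexin, at 133 RPKM in H2B-APEX2 and 23.9 RPKM in APEX2-NES. SEC61A1, the channel through which proteins enter the endoplasmic reticulum, had 1.32 RPKM in H2B-APEX2 and 8.71 RPKM in APEX2-NES.

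Histone and cytoskeleton messenger RNAs were mostly on the low side. Over all genes 22.3% were higher and 20.6% lower, and over protein-coding genes 22.0% and 15.7%. Of the H2A and H2B genes, 34 of 48 were compared, 0 were higher and 24 lower (median -1.26). HIST2H2AC had 42.8 RPKM in H2B-APEX2, 104 RPKM in APEX2-NES and 138 RPKM in the negative control. Of the H3 and H4 genes, 26 of 32 were compared, 3 higher and 18 lower (median -1.89), and HIST1H3B had 30.4, 106 and 130 RPKM in the same order. The linker histone HIST1H1E differed little, with 169 RPKM in H2B-APEX2, 164 RPKM in APEX2-NES and 202 RPKM in the negative control, while HIST1H1B had 0.886 RPKM in H2B-APEX2 and 31.0 RPKM in APEX2-NES. Histone genes are near-identical to each other, and reads can pass between copies: HIST2H3D, lower by 3.77 here, was higher by 2.29 once total RNA was subtracted, because its total RNA was listed at 0 in H2B-APEX2 and 63.5 RPKM in APEX2-NES cells. Tubulins counted 0 higher and 7 lower of 10 (median -1.30), with TUBB at 12.7 RPKM in H2B-APEX2 and 38.8 RPKM in APEX2-NES. Genes of the actin cytoskeleton counted 2 higher and 16 lower of 27 (median -1.14). TMSB10, a thymosin that binds free actin, had 15.4 RPKM in H2B-APEX2 and 148 RPKM in APEX2-NES, and ACTB had 39.1 and 88.4 RPKM in the same order. With the GC trend removed the medians were -0.60 for H2A and H2B, -0.62 for H3 and H4, -0.72 for tubulins and -0.65 for the actin cytoskeleton. CCND1, cyclin D1, had 0.406 RPKM in H2B-APEX2, 10.98 RPKM in APEX2-NES and 10.99 RPKM in the negative control, the lowest of 13 cyclin and kinase genes, of which 0 were higher and 2 lower.

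**Figure D3:**
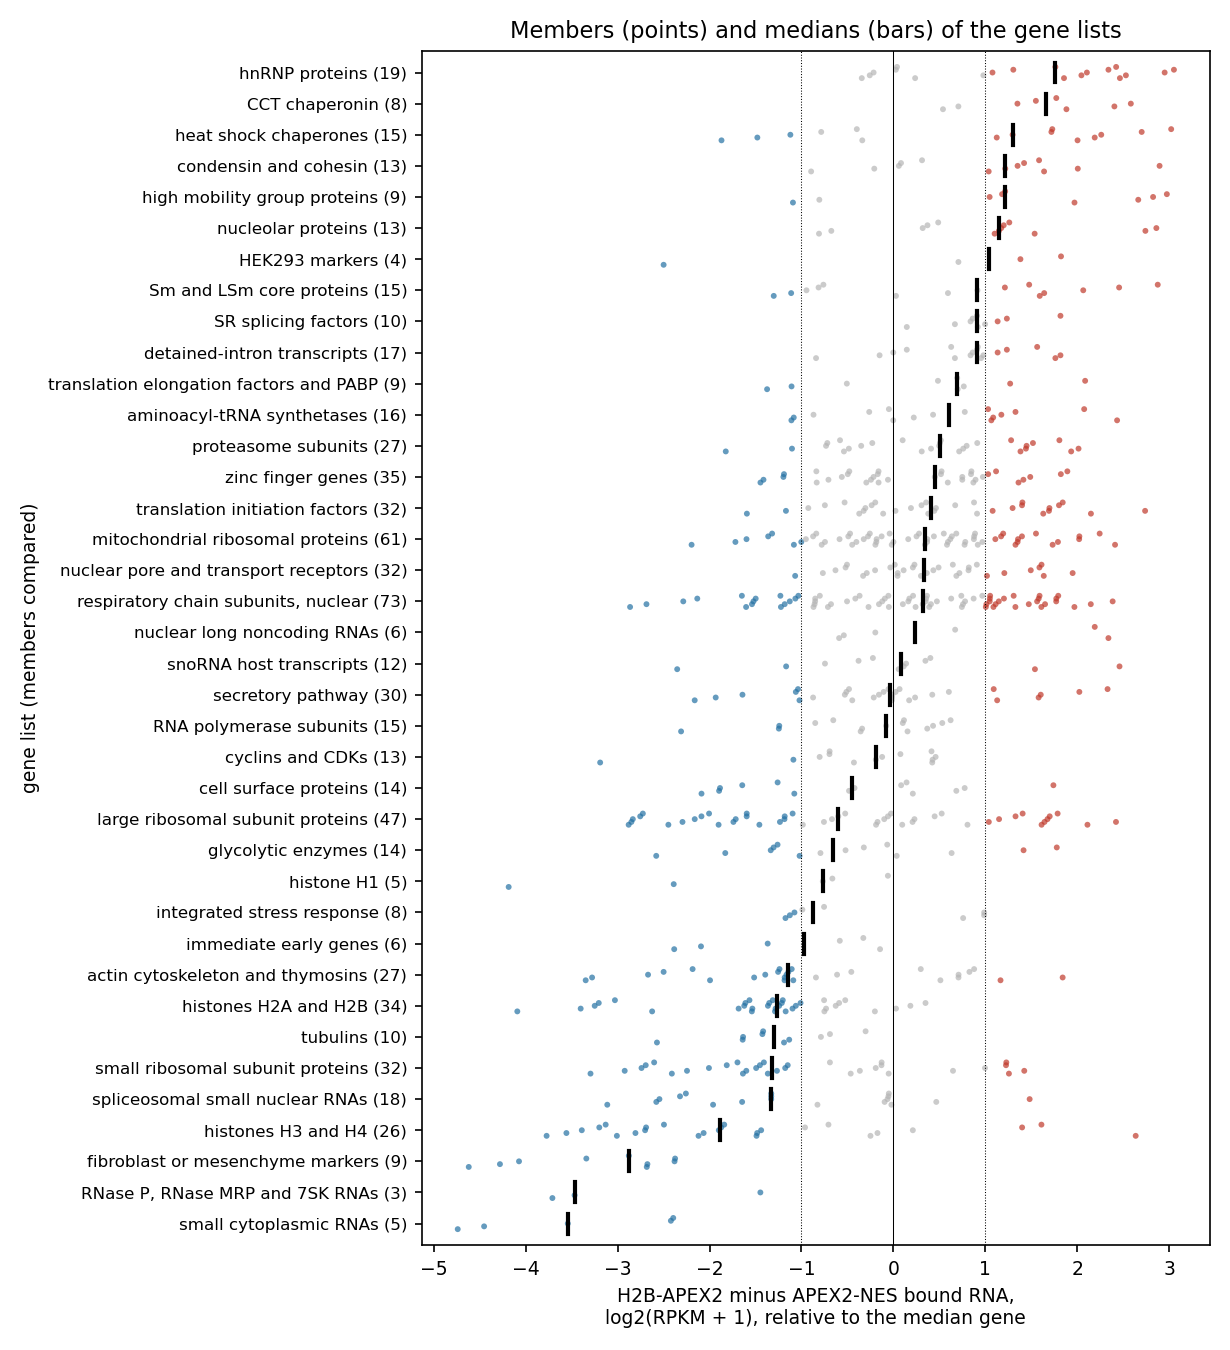
Difference in bound RNA, H2B-APEX2 minus APEX2-NES, of each compared member (points) of the gene lists and the median of each list (bars), as log2(RPKM + 1) relative to the median gene. Red and blue points lie at or past 2-fold. The hnRNP median is 1.76 and that of the small cytoplasmic RNAs -3.54, and the ribosomal protein lists hold members on both sides.

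On the list of nuclear long noncoding RNAs 6 genes were compared, 2 higher and 0 lower, beside 22.3% higher and 20.6% lower over all genes. XIST, which coats the inactive X chromosome, had 69.4 RPKM in H2B-APEX2 bound RNA, 12.02 RPKM in APEX2-NES and 13.4 RPKM in the negative control (difference 2.34, counting SE 0.02). MALAT1, a speckle RNA, had 170 RPKM in H2B-APEX2, 33.97 RPKM in APEX2-NES and 43.5 RPKM in the negative control (2.19). The remaining 4 of the 6 compared were within 2-fold. NEAT1, the RNA of paraspeckles, had 0.903 RPKM in H2B-APEX2, 1.58 RPKM in APEX2-NES and 2.69 RPKM in the negative control. LINC00657, on the same list but known as NORAD and found largely in the cytoplasm, had 4.99 RPKM in H2B-APEX2 and 7.43 RPKM in APEX2-NES. SNHG6, a snoRNA host transcript, was the highest of the named noncoding genes with 48.1 RPKM in H2B-APEX2 and 7.34 RPKM in APEX2-NES (2.46). Another host, SNHG3, had 1.19 and 9.45 RPKM in the same order, and of 12 hosts 2 were higher and 2 lower. Over the lincRNA class 12 of 204 genes were higher and 39 lower, beside 22.3% higher and 20.6% lower over all genes.

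Short structured RNAs were more often lower than higher in H2B-APEX2 bound RNA, beside 22.3% higher and 20.6% lower over all genes. The 3 genes of 7SL RNA, the scaffold of the signal recognition particle, summed to 7903 RPKM in H2B-APEX2, 95329 RPKM in APEX2-NES and 66806 RPKM in the negative control. They are given as a sum because near-identical copies cannot be told apart: RN7SL3 had 29112 reads in H2B-APEX2 and 0.02 reads in APEX2-NES. RNY1, a Y RNA, partner of the Ro protein and transcribed by RNA polymerase III, is printed whole as an example of the short RNAs, with the closing run of T in capitals (GENCODE 29, in DNA letters, 5′ to 3′).
RNY1: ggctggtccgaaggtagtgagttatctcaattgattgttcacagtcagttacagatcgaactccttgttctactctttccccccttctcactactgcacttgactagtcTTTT
RNY1 (hg19 chr7:148684228-148684340, minus strand) had 2.06 RPKM in H2B-APEX2, 32.3 RPKM in APEX2-NES and 36.2 RPKM in the negative control. It rested on 16 reads in H2B-APEX2, 169 in APEX2-NES and 208 in control cells. Of the nuclear and nucleolar RNAs, RMRP, the RNA of RNase MRP, had 422 RPKM in H2B-APEX2, 5165 RPKM in APEX2-NES and 4852 RPKM in the negative control. RPPH1, the RNA of RNase P, had 818 RPKM in H2B-APEX2, 8463 RPKM in APEX2-NES and 6783 RPKM in the negative control. RN7SK, which holds the elongation factor P-TEFb in the nucleus, had 7023 RPKM in H2B-APEX2, 17893 RPKM in APEX2-NES and 15349 RPKM in the negative control. Its difference was -1.45, but -0.70 against the APEX2-NES library of 2016 and -0.68 with the GC trend removed. The 4 U1 genes, small nuclear RNAs that recognise the 5′ splice site, summed to 6502 RPKM in H2B-APEX2, 20355 RPKM in APEX2-NES and 23126 RPKM in the negative control. Of 18 spliceosomal RNA genes compared, 1 was higher and 10 lower, the 5 U6 genes lying between -0.10 and -0.02. Their median was -1.33, but -0.46 with total RNA subtracted and -0.78 with the GC trend removed. Of 73 genes of the snRNA class 2 were higher and 27 lower. SNORD3, the U3 RNA of ribosome synthesis, summed over 5 genes to 353 RPKM in H2B-APEX2, 4247 RPKM in APEX2-NES and 7497 RPKM in the negative control. Of 35 snoRNA genes 1 was higher and 30 lower, and of the 37 genes of the rRNA class 0 were higher and 37 lower. The rRNA class holds copies of 5S RNA, between which reads can pass, so these are not 37 separate results. RNA5S4 had 30.7 RPKM in H2B-APEX2, 372 RPKM in APEX2-NES and 3793 RPKM in the APEX2-NES library of 2016. Among the 9 compared genes of the scaRNA class, which holds Cajal body RNAs, 1 was higher and 6 lower (median -1.38). The higher one was SCARNA7, with 166 RPKM in H2B-APEX2 and 41.2 RPKM in APEX2-NES. SCARNA9, listed in the antisense class, was also higher (1.62), as was RNU11 (1.48), an RNA of the minor spliceosome, which had 3 reads in APEX2-NES.

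The make-up of the libraries differed by gene class. Protein-coding genes took 60.1% of listed reads in H2B-APEX2, 31.9% in APEX2-NES and 32.3% in control cells. Genes of the class misc_RNA, which holds Y RNAs, 7SK and the many copies of 7SL and 7SK but not the 3 genes of 7SL itself, took 3.09% in H2B-APEX2, 15.4% in APEX2-NES and 8.41% in control cells. Processed pseudogenes took 18.2% in H2B-APEX2, 8.28% in APEX2-NES and 5.00% in control cells. Mitochondrial genes held 0% of listed reads in H2B-APEX2, 18.7% in APEX2-NES and 43.8% in control cells, so the shares do not rest on the same genes. Over nuclear genes alone the protein-coding share was 60.1% in H2B-APEX2, 36.9% in APEX2-NES and 46.3% in control cells. The misc_RNA share was then 3.09%, 18.9% and 14.975% in the same order of lines, and that of processed pseudogenes 18.2%, 10.2% and 8.90%. Nuclear copies of mitochondrial genes stay in these shares. They held 11.2% of all listed reads in H2B-APEX2, 2.46% in APEX2-NES and 5.73% in control cells. The exact 95% interval of the protein-coding share, which covers counting error only, was 60.04% to 60.08% in H2B-APEX2 and 31.86% to 31.90% in APEX2-NES.

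**Figure D4:**
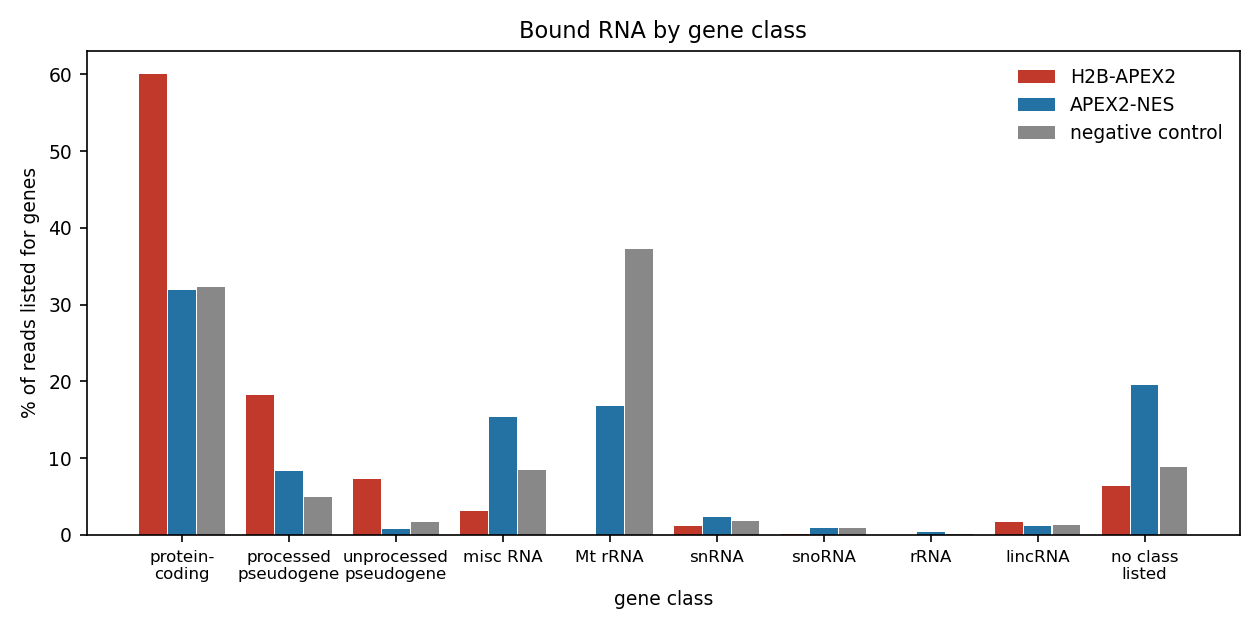
Share of the reads listed for genes that fell in each gene class, in percent, for bound RNA of H2B-APEX2, APEX2-NES and the negative control, 1 library each. Protein-coding genes hold 60.1% in H2B-APEX2 and 31.9% in APEX2-NES, and mitochondrial rRNA 0% in H2B-APEX2 and 16.8% in APEX2-NES.

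Processed pseudogenes, which arose from spliced messenger RNAs, lay on the side of their parent genes in the families named here. The 42 compared copies of HNRNPA1 had a median difference of 2.67, and HNRNPA1 itself 3.05. For NPM1 the 21 copies had a median of 2.77 and the parent 2.86. At the other end the 11 copies of RPSA, a small subunit protein, had a median of -2.26 and the parent -2.24, and the 8 copies of GAPDH a median of -1.95 and the parent -2.58. Reads from a parent can be listed under its copies, the sources used here do not say how such reads were assigned, and copies and parents are not independent. Over all 1233 processed pseudogenes compared, 445 were higher and 285 lower, beside 22.3% higher and 20.6% lower over all genes. By number of copies, the median was 0.05 for the 3251 protein-coding genes without a named copy and 0.43 for the 70 with 10 or more.

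Genes of the mitochondrial genome could not be compared, since all 37 had 0 reads in H2B-APEX2 bound RNA, against 2726061 reads in APEX2-NES and 10058428 in control cells. MT-RNR2, the large mitochondrial rRNA, had 17991 RPKM in APEX2-NES and 56092 RPKM in the negative control. The nuclear copies of mitochondrial genes held their largest share in H2B-APEX2. They took 11.2% of listed reads in H2B-APEX2, 2.46% in APEX2-NES and 5.73% in control cells. Of 18 compared 17 were higher and 0 lower, with a median of 1.74, beside 22.3% higher and 20.6% lower over all genes. MTRNR2L12, a copy of MT-RNR2 on chromosome 3, had 8227 RPKM in H2B-APEX2, 2464 RPKM in APEX2-NES and 8007 RPKM in the negative control, and was the most abundant protein-coding entry in both lines. MTATP6P1, a copy of the ATP synthase gene MT-ATP6, had 4067, 427 and 1494 RPKM in H2B-APEX2, APEX2-NES and the negative control. The footprint sheets, where short RNA fragments protected by crosslinked proteins were counted, do hold mitochondrial reads in H2B-APEX2: 311540 crosslinked reads, 17.9% of that line's, on 10 mitochondrial genes. They were 5.17% of footprint reads in APEX2-NES and 11.5% in control cells. The sources used here do not say whether H2B-APEX2 bound RNA was counted on the mitochondrial chromosome.

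Among nuclear genes, 71 had 0 reads in H2B-APEX2 and 39 had 0 reads in APEX2-NES although their mean reached 1 RPKM. Many belong to families of identical or overlapping genes. HIST2H3C had 0 reads in H2B-APEX2 and 94.97 RPKM in APEX2-NES, while its near-identical neighbour HIST2H3A had 33.8 RPKM in H2B-APEX2 and 0 reads in APEX2-NES, and as a sum they had 33.8 RPKM in H2B-APEX2 and 94.97 RPKM in APEX2-NES. HIST2H4A and HIST2H4B parted in the same way, with a sum of 23.0 RPKM in H2B-APEX2 and 48.5 RPKM in APEX2-NES. RPL36AL is listed at 31.0 RPKM in H2B-APEX2 and at 0 in APEX2-NES and the negative control. In the APEX2-NES library of 2016 RPL36AL had 4.15 RPKM and HIST2H3A 47.4 RPKM, so their 0 reads do not hold for both libraries of that line. No fold is given for these genes.

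Base composition ran with the difference across the whole comparison. Over 3911 protein-coding genes with a coding sequence in GENCODE 29, the difference correlated with the share of codons ending in G or C (GC3) at Pearson's r = -0.61, and with GC content of the longest transcript at r = -0.59. These are descriptions across genes of the same 2 libraries, not replicates. The median GC3 was 41.6% in the higher, 57.2% in the between and 75.5% in the lower class. With genes cut into 10 groups by GC3, 187 were higher and 6 lower in the lowest group (median 0.96). In the highest group, 3 of 391 were higher and 193 lower (median -0.99). Length and structure ran with it far less: r was 0.03 for coding length, 0.07 for the number of exons and 0.09 for the listed gene length. In total RNA of the same lines GC3 went slightly the other way, with r = 0.23 and medians of -0.02 in the lowest and 0.19 in the highest group.

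The relation held inside many gene families, where members share a function. Across ribosomal proteins r with GC3 was -0.65 in the large and -0.67 in the small subunit, across respiratory chain genes -0.68, across initiation factors -0.80 and across nucleolar proteins -0.88. RPL5, the highest large subunit gene, had a GC3 of 45.5%, and RPL41, within 2-fold at a difference of -0.76, a GC3 of 80%. Other lists did not follow it: r was 0.13 for the detained-intron transcripts, 0.52 for 15 H2A and H2B genes with a value and -0.16 for tubulins. COL1A2, among the 12 lowest, had a GC3 of 32.4%, while the other 11 had more than 60%. The 12 highest had 29.9% to 51.9%. Chromosome 18 had a median difference of 0.80 and a median GC3 of 44.4%, and chromosome 19 had -0.77 and 77.5%. Other chromosomes did not keep this order throughout: chromosome 21 had 0.47 and 58.3%, and chromosome 3 had 0.14 and 48.02%. The part of base composition in single differences, and of any step of the library preparation that depends on it, was not tested.

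**Figure D5:**
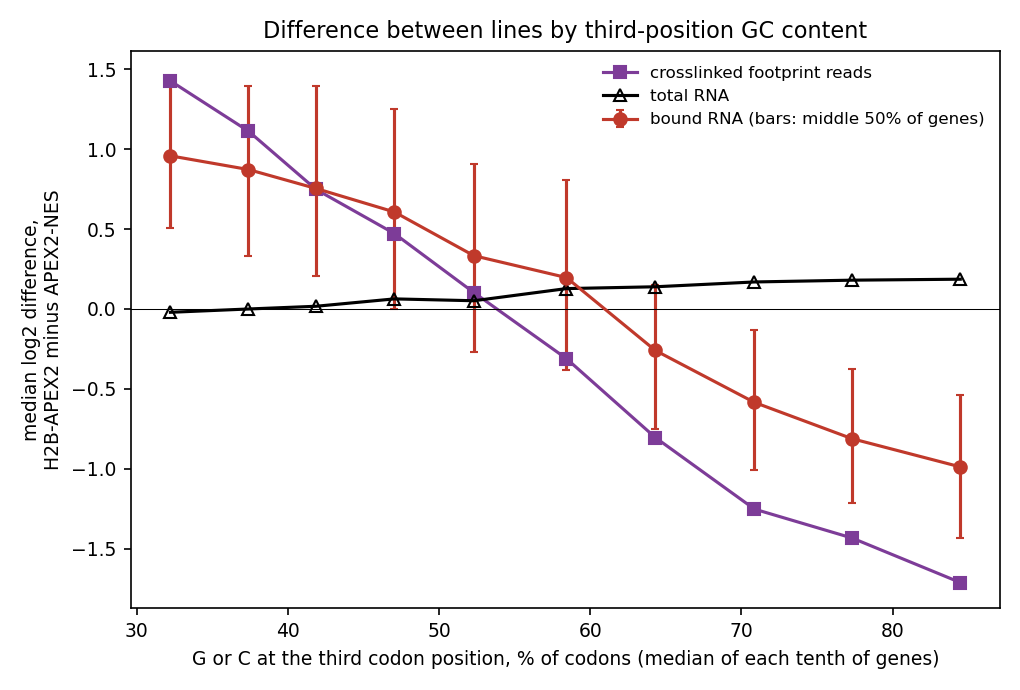
Median difference, H2B-APEX2 minus APEX2-NES, in 10 groups of protein-coding genes ordered by the share of codons that end in G or C, in percent. Circles are bound RNA with bars over the middle 50% of genes, squares the log2 ratio of footprint read shares and triangles total RNA, which is not set relative to its median. Bound RNA goes from 0.96 in the lowest to -0.99 in the highest group, footprints from 1.43 to -1.71, and total RNA from -0.02 to 0.19.

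Footprints are separate libraries of the same lines, with 1741844 crosslinked reads in H2B-APEX2, 575990 in APEX2-NES and 185487 in control cells. A gene was called when its share of a line's reads differed at least 2-fold with an exact 95% interval on that side of 1, for genes with at least 10 reads over both lines. The interval covers counting error only, and each line has 1 footprint library. Reads in introns are included, which were 19.9% of crosslinked reads in H2B-APEX2 and 3.94% in APEX2-NES. Of 3327 protein-coding genes of the comparison that reached this, 943 were higher in H2B-APEX2 (28.3%) and 954 lower (28.7%). Among the 784 genes with a higher bound RNA, 358 were higher in footprints and 75 lower, with a median log2 ratio of 0.82. Among the 442 genes with a lower bound RNA, 34 were higher and 287 lower, with a median of -1.62. The 2101 genes between had a median of -0.13. CCT8, higher in bound RNA, had 83 crosslinked reads in H2B-APEX2 and 147 in APEX2-NES, a ratio of shares of 0.187. All 12 of the highest genes had footprints, and the ratio was above 1 in 10 of them. YBX1 had 377 crosslinked reads in H2B-APEX2 and 16 in APEX2-NES, a ratio of shares of 7.79. Of these reads 358 and 5 lay in introns, so the YBX1 ratio rested mostly on intronic reads. SMC4 had 1637 and 106 reads, with 350 and 5 in introns. HSPD1 was an exception with 204 reads in H2B-APEX2 and 122 in APEX2-NES, a ratio of 0.553. At the other end 8 of the 12 lowest genes, LGALS1, S100A6 and COL1A2 among them, had no footprint listed in either line. Genes absent from the footprint sheets count as 0 here, so this does not show that no protein bound them. ACTG1 and RPL7A, at 106 and 172 RPKM in APEX2-NES bound RNA, had none listed either. FTL had 12 reads in H2B-APEX2 and 111 in APEX2-NES, a ratio of 0.0357. RPS29 went against its bound RNA with 117 reads in H2B-APEX2 and 13 in APEX2-NES.

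Introns held 19.9% of crosslinked reads in H2B-APEX2, 3.94% in APEX2-NES and 10.4% in control cells, each over 1 library. This was so in every class of bound RNA: 24.2% in H2B-APEX2 and 2.92% in APEX2-NES for the higher genes, 22.8% and 3.81% for those between, and 21.2% and 2.70% for the lower genes. By number of clusters, the intronic share in H2B-APEX2 was 50.9% for the higher genes, 41.2% for those between and 35.2% for the lower ones, against 6.38%, 5.97% and 5.69% in APEX2-NES. Coding sequence held 21.7% in H2B-APEX2 and 39.0% in APEX2-NES for the higher genes.

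The negative control stood nearer to APEX2-NES than to H2B-APEX2 in both called classes. The 864 higher protein-coding genes had a median of 6.77 RPKM in H2B-APEX2, 1.34 RPKM in APEX2-NES and 1.80 RPKM in the negative control. The 617 lower ones had a median of 0.843 RPKM in H2B-APEX2, 4.17 RPKM in APEX2-NES and 4.22 RPKM in the negative control. Differences from the negative control in log2(RPKM + 1), not set relative to the median gene, had these medians. The higher genes had 1.49 in H2B-APEX2 and -0.13 in APEX2-NES. The lower genes had -1.23 and 0.10 in the same order, and the genes between had 0.002 and -0.11. Medians of total RNA were 1.30 RPKM in H2B-APEX2 and 1.08 RPKM in APEX2-NES for the higher genes, and 1.15 and 0.948 RPKM for the lower ones. A difference between the lines does not show which of them departs from what the control recovers. The APEX2-NES library of 2016, whose standing as a separate culture is not stated, had medians of 0.767 RPKM for the higher and 2.10 RPKM for the lower genes.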

How the data were processed

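Bound RNA of H2B-APEX2, APEX2-NES and control HEK293 cells was analysed from the table of 2017, with total RNA and protected footprints of the same lines. Per the labels' protocols, libraries were made with a directional kit, with rRNA depletion for total RNA but not for bound RNA. Per the submitters' processing notes, bcl2fastq 2.17.1, TopHat and hg19 were used. The deposited table gives, per the file headers, an expected count and an RPKM value for each gene, made by the authors before deposit. Many expected counts are not whole. The counter, its annotation and its treatment of reads with several matches are not stated. The deposited footprint sheets give a count of crosslinked reads per gene from the authors.

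The difference is log2(RPKM + 1) of H2B-APEX2 minus APEX2-NES, less its median over genes with reads in both libraries and a mean of at least 1 RPKM. A fold on this scale understates the change of low genes. With 1 library a group there is no test, and 2-fold is a rule of size. Counting SEs come from the expected counts. Base composition came from GENCODE 29 transcripts on GRCh38, matched by gene ID, and coordinates are those of the deposited table on hg19. Footprint ratios have exact 95% intervals, which cover counting error only. Members and gene lists were chosen with earlier results of these data known. Named were the 12 highest and 12 lowest protein-coding genes and the 6 highest and 6 lowest others with at least 50 reads in both libraries. Also named were the 10 most abundant protein-coding genes in each library, the 3 most abundant members of each list, the 12 most abundant genes with 0 reads in 1 library, and the cell type markers. Other members, such as those at the ends of a list, were chosen after their values were seen, and not every named gene is printed. Some items are not reported here. The 12 alternatives changed 1 choice at a time. Tables were handled in Python 3.11.15 (pandas 2.3.3, numpy 2.4.6), with intervals from scipy 1.17.1 and plots by matplotlib 3.10.9. R 4.3.3 with edgeR 4.0.16 and DESeq2 1.42.0 gave scaling factors only. The code was tested on simulated data.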

Additional observations from a re-analysis of the deposited data

How the results depend on the processing

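The reported counts were 1428 genes higher and 1315 lower. A pseudocount of 5 gave 634 and 483, and for protein-coding genes 312 and 148. A pseudocount of 0.1 gave 937 protein-coding genes lower. A mean of at least 10 RPKM left 404 higher and 396 lower, with 185 and 108 protein-coding, because fewer genes were compared. At 4-fold the counts were 413 and 352, with 189 and 119 protein-coding. Removing the GC trend gave 890 genes higher, and 485 higher and 410 lower protein-coding genes. The APEX2-NES library of 2016 gave 544 protein-coding genes higher. The cause of these shifts in count was not tested, apart from the stricter thresholds. No centring gave 1555 higher and 1161 lower, and TMM and DESeq2 scaling 1436 and 1313, and 1429 and 1315. Of named genes, 36 of 141 lost the 2-fold size with the GC trend removed, as did 11 of 38 list medians. HIST2H3D reversed to 2.29 with total RNA subtracted, where H2B-APEX2 total RNA was listed at 0. The share of called genes that were higher was 52.1% as reported and lay within 10 percentage points of that under every alternative. All alternatives but the one without centring set differences relative to their own median. Since that favours an even split, the steady share does not show how firm the calls are. With at least 50 footprint reads the median log2 ratios were 0.77 for the higher and -1.70 for the lower genes. The planned share of genes also past 2-fold against the negative control was not run, since both comparisons would share libraries. No paired analysis was possible because each group has 1 sample.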

Other observations

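Olfactory receptor genes, which HEK293 cells are not known to use as a class, were looked at after the other values were seen. Of 401 such genes, 121 had reads in H2B-APEX2 bound RNA, 28 in APEX2-NES bound RNA and 26 in the control cells. Over all 57773 listed genes, 33362, 23125 and 23668 had reads in the same order, so more genes of any kind had reads in H2B-APEX2. The reads on olfactory receptor genes summed to 369 in H2B-APEX2, 257 in APEX2-NES and 703 in control cells. In total RNA, 4 of the olfactory receptor genes had reads in H2B-APEX2 and 11 in APEX2-NES cells. In the APEX2-NES bound library of 2016, 65 of them had reads, 178 in sum, where 29274 of all genes had reads.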
